A study of Mus musculus with 4 samples.

Results

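Slf2 and Adamts6 are the hosts of 2 sets of circular RNAs (circRNAs) in which the same exon ends were joined in many different combinations. Their circles were taken by position in the mm9 mouse genome: every circle on the plus strand within a window of chromosome 19 was assigned to Slf2 (also called Fam178a), and every circle on the plus strand within a window of chromosome 13 to Adamts6. This gave 38 circles of the 69136 in the 4 libraries, 28 exonic (14 for each gene) and 10 intronic. The lists carry no gene symbols, so both names rest on these positions, and the transcripts named there are ENSMUST00000096053, ENSMUST00000087330 and assembled models for Slf2, and ENSMUST00000065766 and assembled models for Adamts6. The loci were chosen by the junction read numbers themselves, which were seen to be divided among circles that share a start or an end, so the division of reads among circles is described below and not tested.

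An exonic circRNA forms by back-splicing. This joins the 5' splice site at an exon's end to the 3' splice site at the start of the same or an earlier exon. A read across that junction identifies the first and the last exon of the circle. One gene can give several circles when a start pairs with several ends or an end with several starts, which is called alternative back-splicing. The SLF2 protein links the RAD18 and SLF1 repair factors to the SMC5/6 complex, which keeps chromosomes stable during DNA damage and replication stress. ADAMTS6 is a secreted metalloprotease with thrombospondin motifs that acts in the extracellular matrix and is needed for normal heart development.

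All 4 libraries came from C2C12, an established mouse myoblast line, differentiated for 3 to 4 days in medium with 2% horse serum. The control group was 2 libraries of total RNA, and the other group was 2 libraries of RNA enriched for circles by RPAD, in which RNase R digests linear RNA for 30 min and what linear RNA remains is given a poly(A) tail and removed on oligo-dT beads. The protocol names HeLa RNA in the RNase R step while every library is labelled C2C12, which was not resolved. Whether the libraries of one group stem from separate cultures is not stated in the labels, so the spread between them may be technical, and muscle marker genes were not analysed here. The total RNA libraries held 16179 and 15392 reads on 2067 and 1821 exonic circles, and the RPAD libraries held 55971 and 91868 reads on 499 and 777. These totals are of back-splice reads and not of all reads sequenced, so each level is a share of the back-splice reads. Fewer circles and less RNA per circle cannot be told apart.

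Slf2 and Adamts6 each gave about 1% of the exonic back-splice reads in total RNA and a smaller share after RPAD. For Slf2, total RNA libraries 1 and 2 held 113 and 199 exonic reads, and RPAD libraries 1 and 2 held 66 and 271. As a share of exonic back-splice reads this was 0.698% (exact 95% interval 0.576 to 0.839), 1.29% (1.12 to 1.48), 0.118% (0.0912 to 0.15) and 0.295% (0.261 to 0.332). Both RPAD libraries lay below both total RNA libraries, which themselves differed beyond counting error. The intervals cover counting error only, since PCR copies were not marked.

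For Adamts6 the corresponding exonic reads were 144, 152, 195 and 532, or 0.89% (0.751 to 1.05), 0.988% (0.837 to 1.16), 0.348% (0.301 to 0.401) and 0.579% (0.531 to 0.63) of exonic reads. Its total RNA libraries agreed within counting error, and its RPAD libraries again lay below them. The group means were 0.996% ± 0.42 and 0.206% ± 0.125 for Slf2, and 0.939% ± 0.0689 and 0.464% ± 0.163 for Adamts6 (SD, n = 2 each). Each difference had an exact two-sided permutation p of 0.33, the smallest that 2 libraries against 2 can give. Of 77 hosts with at least 5 exonic reads in every library, 26% were likewise lower in both RPAD libraries than in both total RNA libraries.

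**Figure D1:**
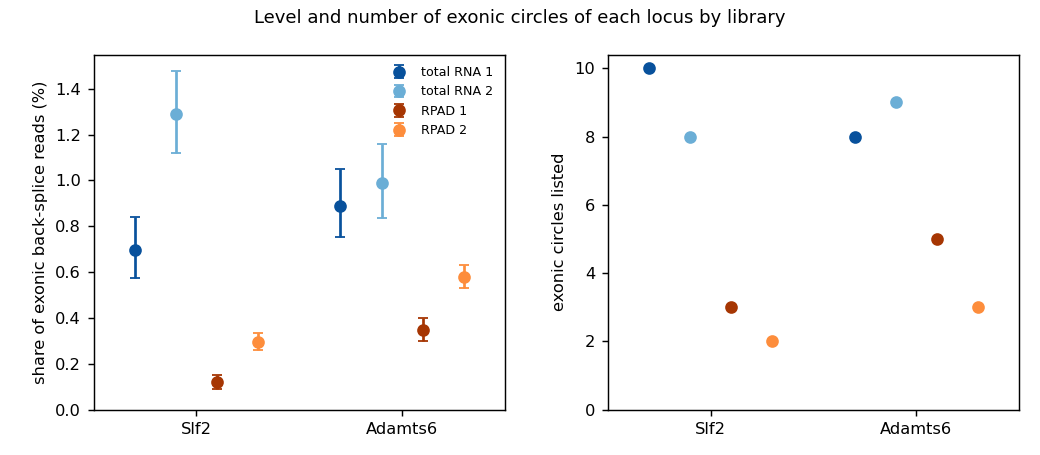
Left, percent of a library's exonic back-splice reads that fall on Slf2 or Adamts6, with exact 95% intervals for counting error as bars; right, number of exonic circles listed for each locus, with 1 point per library. All 4 RPAD points lie below the total RNA points of the same locus in both panels, as in total RNA 1 and RPAD 1 for Slf2 (0.698% and 0.118%).

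Each locus was among the hosts with the most exonic circles. Of 2391 hosts, 3 had more than the 14 listed for Slf2 and for Adamts6. Slf2 listed 10 and 8 exonic circles in total RNA against 3 and 2 in RPAD, and Adamts6 listed 8 and 9 against 5 and 3. Fewer exonic circles in both RPAD libraries than in both total RNA libraries were found for 48.1% of the 77 hosts, so the loci share this with many others. Every one of the 28 circles shares a start or an end with another exonic circle, which is how the loci were chosen; over all 4074 exonic circles the share is 37.6%.

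The Slf2 circles lay between 45008602 and 45035365 on chromosome 19 and used 5 starts and 6 ends. In the numbering of its transcript model they begin at exon 2, 3, 4, 5 or 9 and end at exon 6, 7, 8, 9, 10 or 11. These ends allow 27 pairs in order, of which 14 were read. Exon 5 is the longest of the exons concerned, at 968 nt (45015949 to 45016916), and exons 5 and 6 lie inside 13 of the 14 circles. The exception joins exons 9 and 10 (179 nt) and was read 13 times, all in total RNA 2.

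In each total RNA library more Slf2 reads came from circles that start at exon 4 than from any other start, and more from circles that end at exon 7 than from any other end. The circle of exons 4 to 7 (1217 nt, 45012855 to 45022542) was read 32 and 97 times in total RNA and never after RPAD. It was the leading Slf2 circle in both total RNA libraries, with 28.3% (20.2 to 37.6) and 48.7% (41.6 to 55.9) of the locus's exonic reads. The counts of 0 after RPAD allow a share of up to 4.55% in RPAD 1 and 1.11% in RPAD 2.

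The circle of exons 4 to 6 (1094 nt), which shares that start and ends 1 exon earlier, was read 15 and 65 times in total RNA and never after RPAD. Exons 5 to 7 (1162 nt), which share the end and start 1 exon later, were read as a circle 25 times in total RNA 1 and 19 times in RPAD 1. That circle was listed in neither library numbered 2. For exons 3 to 7 (1951 nt) the reads were 8 and 9 in total RNA, none in RPAD 1 and 5 in RPAD 2. Of the Slf2 circles listed in both total RNA libraries, this was the only one also listed after RPAD. Exons 4 to 10 (1564 nt) formed a rare circle, with 1 and 5 reads in the total RNA libraries and none after RPAD.

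The 4 Slf2 circles with most reads after RPAD were not listed in total RNA 2. Exons 5 to 11 (1651 nt, 45015949 to 45035365) were joined in 266 reads of RPAD 2, in 1 read of total RNA 1 and in none of the other libraries. This circle held 98.2% (95.7 to 99.4) of Slf2 exonic reads in RPAD 2, against 0.885% (0.0224 to 4.83) in total RNA 1. Exons 4 to 9 (1488 nt) were joined in 13 reads of total RNA 1 and 28 reads of RPAD 1 only, and this circle led RPAD 1 with 42.4% (30.3 to 55.2). The remaining RPAD 1 reads were 19 on exons 5 to 7 and 19 on exons 2 to 10, a circle named here after its values were seen.

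None of the 5 Slf2 circles listed after RPAD was listed in both RPAD libraries; over all exonic circles 121 of the 1155 listed after RPAD (10.5%) were in both, so this is near the share of the series. The files give each junction a score from 0 to 3 of unstated meaning. The junctions of exons 4 to 9 and 2 to 10 in RPAD 1, and of exons 3 to 7 in RPAD 2, had scores above 0, as had 14.7% of all exonic circles in at least 1 library; every Adamts6 circle had a score of 0. With junctions of score 0 only, Slf2's share of exonic reads was 0.713% and 1.35% in total RNA, against 0.0436% for RPAD 1 and 0.342% for RPAD 2. The RPAD libraries stayed below total RNA, while the circles of exons 4 to 9 and 2 to 10 were gone from RPAD 1 and that of exons 5 to 7 was left there alone.

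**Figure D2:**
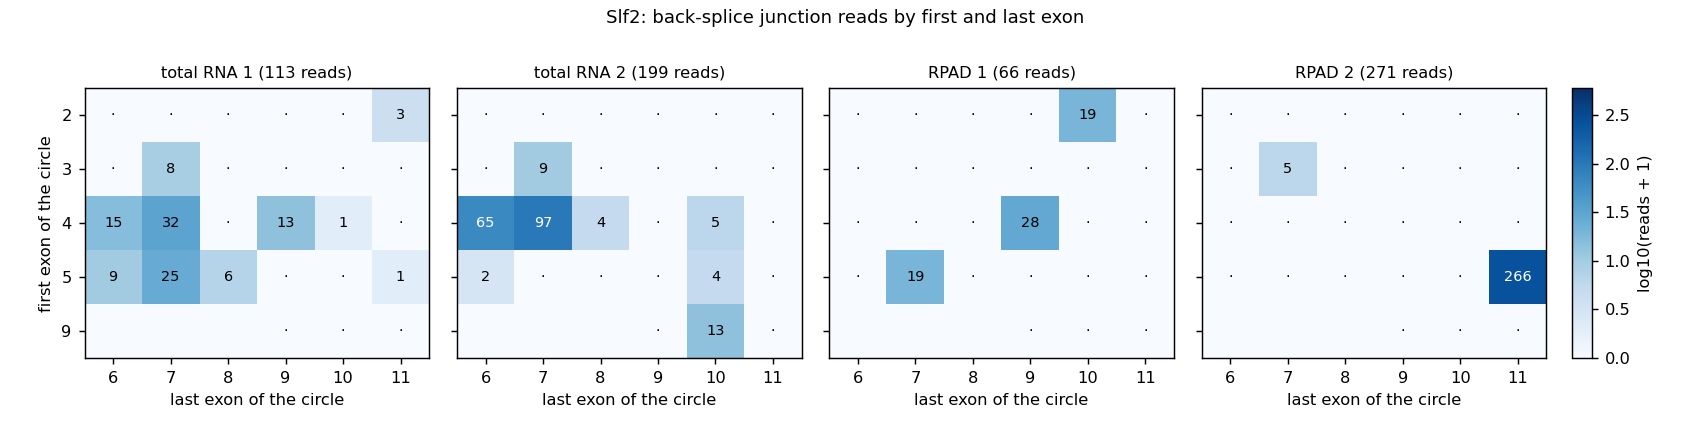
Back-splice junction reads of the 14 exonic Slf2 circles, with 1 panel per library, the first exon of the circle in rows and the last exon in columns; numbers are reads, dots are 0 and colour is log10(reads + 1). Most total RNA reads lie in the rows of exons 4 and 5, with 32 and 97 reads at exons 4 to 7, while RPAD 2 has 266 reads at exons 5 to 11.

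Summed by start, exon 4 held 54.0% (44.4 to 63.4) and 85.9% (80.3 to 90.4) of Slf2 exonic reads in total RNA, 42.4% in RPAD 1 and 0 of 271 reads in RPAD 2. Exon 5 as the start held 36.3% and 3.02% in total RNA, and after RPAD 28.8% and 98.2%. The use of these 2 starts therefore differed between the total RNA libraries beyond counting error. Summed by end, exon 7 held 57.5% (47.9 to 66.8) and 53.3% (46.1 to 60.4) in total RNA, which agreed within counting error, and 28.8% and 1.85% in RPAD. Circles listed in at least 2 libraries or with at least 20 reads were described singly; the 6 other Slf2 circles had 3 to 19 reads each.

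Weighted by reads, the mean Slf2 circle was longer in both RPAD libraries than in both total RNA libraries. The weighted spliced length was 1304 and 1158 nt in total RNA, and after RPAD 1640 and 1657 nt. The mean number of exons was 4.0 and 3.7 against 6.0 and 6.96. Both measures depend on how the reads divide among circles, for which the loci were chosen, so they are a description and were not tested. These means follow from the few circles just named, whose inner exons are those of the transcript model and were not read by the junction. Adamts6 did not repeat the difference, with 1508 and 1599 nt in total RNA and 1620 and 638 nt after RPAD. How many other hosts show such a difference was not counted.

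The Adamts6 circles lay between 105084527 and 105269755 on chromosome 13 and used 3 starts and 11 ends, with 14 of 33 possible pairs read. The pattern was 1 start paired with many ends: 8 of the 14 circles begin at exon 2 (378 nt, 105084527 to 105084904). Exon 2 as the start held 88.9% (82.6 to 93.5) and 94.1% (89.1 to 97.3) of the locus's exonic reads in total RNA, 99.5% in RPAD 1 and 2.63% (1.45 to 4.38) in RPAD 2. The first 3 libraries were high and RPAD 2 was low. Exon 2 is the first exon of 1019 of the 4074 exonic circles.

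Among the circles that start at exon 2, that of exons 2 to 7 (1354 nt, 105084527 to 105104463) was read 80 and 71 times in total RNA, 81 times in RPAD 1 and never in RPAD 2. It held 55.6% (47.1 to 63.8), 46.7% (38.6 to 55.0) and 41.5% (34.5 to 48.8) of the locus in the 3 libraries that listed it, with overlapping intervals. In RPAD 2 the 0 of 532 reads allows a share of up to 0.564%. The intron after exon 7 is the longest between the numbered exons of either locus, at 32964 nt.

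The end of exon 7 was used in all 4 libraries, by a different start in RPAD 2. The circle of exons 4 to 7 (611 nt, 105097301 to 105104463) was read 518 times, all in RPAD 2; the 0 reads elsewhere allow shares of up to 2.08%, 1.97% and 1.54%. It held 97.4% (95.6 to 98.6) of Adamts6 exonic reads in RPAD 2. Exon 4 as a start was also read in total RNA 2 (9 reads, exons 4 to 14) and in RPAD 1 (1 read, exon 4 alone). With these starts put together, 80 and 71 reads ended at exon 7 in the total RNA libraries, 81 in RPAD 1 and 518 in RPAD 2.

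The circle of exons 2 to 11 (1793 nt, 105084527 to 105165863) was the only circle of either locus listed in all 4 libraries. Its reads numbered 12 and 29 in the control libraries, 94 in RPAD 1 and 7 in RPAD 2. Its share of the locus was 8.33% (4.38 to 14.1), 19.1% (13.2 to 26.2), 48.2% (41.0 to 55.5) and 1.32% (0.531 to 2.69), so the RPAD libraries lay on either side of total RNA. It led RPAD 1, ahead of exons 2 to 7.

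Further ends were joined to exon 2 at lower read numbers. Exons 2 to 9 (1504 nt) were read 25 and 23 times in total RNA, never in RPAD 1 and 7 times in RPAD 2. For exons 2 to 10 (1651 nt) there were 8 and 4 reads in the total RNA libraries, 8 in RPAD 1 and none in RPAD 2. Exons 2 to 14 (2111 nt) gave 3 and 8 reads, both in the control group. Each of these 3 circles was listed in both total RNA libraries. Exons 2 to 15 (2214 nt) gave 1 read in total RNA 2 and 11 in RPAD 1.

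The 7 Adamts6 circles outside this rule had 1 to 9 reads, each in 1 library. They include 3 circles that start at exon 3, with 3, 7 and 6 reads in total RNA 1, and a circle of exons 2 to 24 (23 exons, 3525 nt), the longest of either locus, with 6 reads in total RNA 2.

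**Figure D3:**
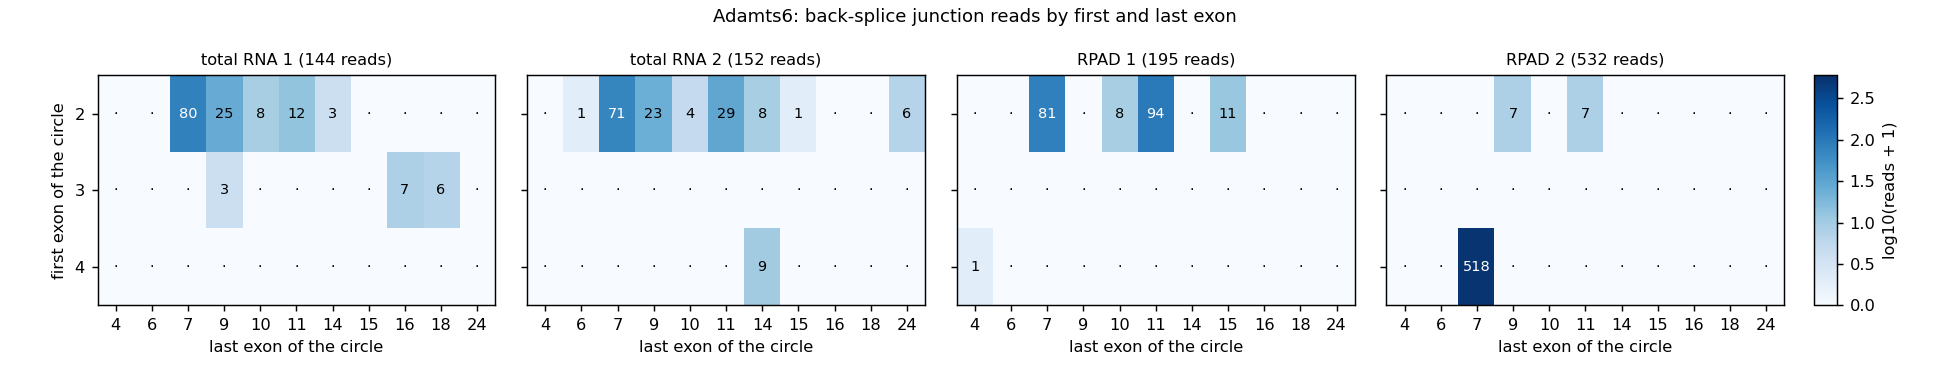
Back-splice junction reads of the 14 exonic Adamts6 circles, drawn with 1 panel per library, first exon in rows, last exon in columns, numbers for reads, dots for 0 and colour for log10(reads + 1). The row of exon 2 is filled in total RNA 1, total RNA 2 and RPAD 1, with 80, 71 and 81 reads at exons 2 to 7, and RPAD 2 has 518 reads at exons 4 to 7.

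The transcript models differed between libraries for 3 Adamts6 circles with the same ends. In RPAD 1 the model behind exons 2 to 11 holds 1 more exon of 137 nt (105159734 to 105159870), which gives 1930 nt in place of 1793. For exons 2 to 15 that exon and a longer exon 13 (159 in place of 146 nt) give 2364 in place of 2214 nt. In RPAD 2 the model behind exons 2 to 9 gives 1503 in place of 1504 nt. The junction reads do not show which inner exons the circles held.

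Both loci had a core of exons that nearly all reads spanned. Circles that share a start or an end overlap, and the loci were chosen for such circles, so the core is a description. Other hosts were not compared for it. On Slf2, circles that include exons 5 and 6 held all exonic reads in total RNA 1 and both RPAD libraries, and 93.5% in total RNA 2. On Adamts6, circles that include exon 4 held all exonic reads in every library, and those that include exon 7 held at least 99.3%. The cover of exons outside the core varied. For Slf2 exon 4 it was 63.7% and 90.5% in total RNA, and after RPAD 71.2% and 1.85%. For Slf2 exon 8 it was 21.2% and 6.53% in total RNA, and after RPAD 71.2% and 98.2%. In RPAD 1 that cover came from the circles of exons 4 to 9 and 2 to 10, both with scores above 0. In RPAD 2 it came from the circle of exons 5 to 11 alone. How many exons of other hosts differ in this way was not counted. For Adamts6 exon 8 the cover was 44.4%, 52.6%, 57.9% and 2.63%.

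**Figure D4:**
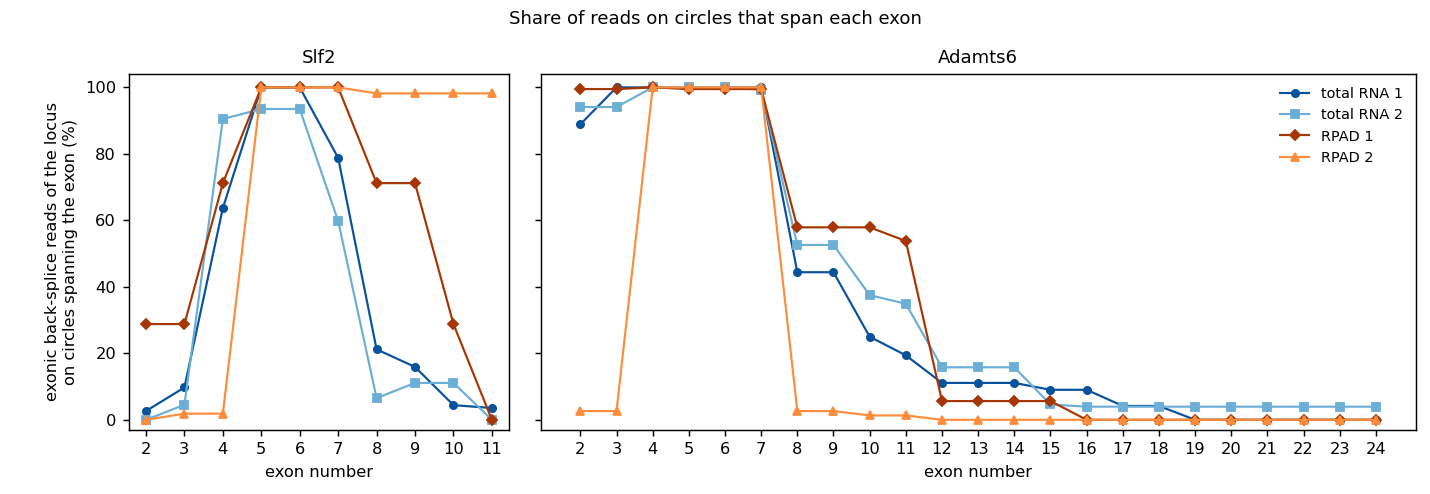
Percent of a locus's exonic back-splice reads on circles that span each exon, with exon numbers on the horizontal axis and 1 line per library; inner exons are taken from the transcript model. Slf2 exons 5 and 6 and Adamts6 exons 4 to 7 lie at or near 100% in all 4 libraries, and RPAD 2 drops to 2.63% at Adamts6 exon 8.

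The share of the leading circle was set beside that of other hosts. Among 31 hosts with at least 20 exonic reads in every library and more than 1 exonic circle, the circle with most reads held a median of 71.7% and 84.2% of a host's exonic reads in total RNA, and after RPAD 88.9% and 90.2%. For Slf2 the values were 28.3%, 48.7%, 42.4% and 98.2%, and for Adamts6 55.6%, 46.7%, 48.2% and 97.4%. Both loci were thus below the median in the first 3 libraries and above it in RPAD 2. The same circle led in both total RNA libraries for 24 of the 31 hosts (77.4%), Slf2 and Adamts6 included. It led in both RPAD libraries for 20 (64.5%), and neither locus was among them. In 3 of the 31 hosts (9.68%), Slf2 included, the RPAD libraries shared no exonic circle. These are descriptions, since the loci were chosen for how their reads divide.

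Hosts were compared with each locus by the share of their own leading circle, taken as the circle with the highest mean share over the 4 libraries. That circle was exons 5 to 11 for Slf2, mainly through RPAD 2, and exons 2 to 7 for Adamts6. The likeness was the mean absolute difference of this share over the 4 libraries, in percentage points, among 76 other hosts with at least 5 exonic reads in each. Closest to Slf2 was a host on chromosome 11 from 79197677 to 79373064, at 0.682 points, whose leading circle held all of its exonic reads in RPAD 2 and none in the other libraries. The next were on chromosome 9 from 109928605 to 109975209 (16.5 points) and chromosome 2 from 72778600 to 72809571 (17.1 points). Closest to Adamts6 was a host on chromosome 13 from 17830751 to 17864791 (12.5 points). After it came hosts on chromosome 2 from 76562431 to 76820604 (15.9 points) and chromosome 19 from 28358142 to 28614898 (16.5 points). In RPAD 2 their leading circles held 13.1%, 45.5% and 0% of their exonic reads, in that order. Only the last was at 0 there, as was the circle of exons 2 to 7 of Adamts6.

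Lengths and flanking introns were set beside those of all exonic circles, with no test. For the 15 circles listed in at least 2 libraries or with at least 20 reads, the spliced length was 611 to 2214 nt. With the less read circles included, it was 179 to 2484 nt for Slf2 and 169 to 3525 nt for Adamts6. The median over all exonic circles was 510 nt. Exons 4 to 7 of Adamts6 was the shortest of the 15, at percentile 57.4 of all exonic circles, and Slf2 exons 4 to 7 lay at percentile 83.8. The intron before exon 4 of Slf2 was 2698 nt and that after exon 7 was 919 nt, at percentiles 39.1 and 21.8 of 3838 exonic circles with both introns known. For Adamts6 the intron before exon 2 was 6782 nt (percentile 59.5) and that after exon 7 was at percentile 93.4. The medians over those circles were 4563 nt before and 3605 nt after. The spliced length was a multiple of 3 in 3 of 14 Slf2 and 4 of 14 Adamts6 circles, against 40.9% of all exonic circles. Where coding sequence lies in these exons was not analysed here.

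**Figure D5:**
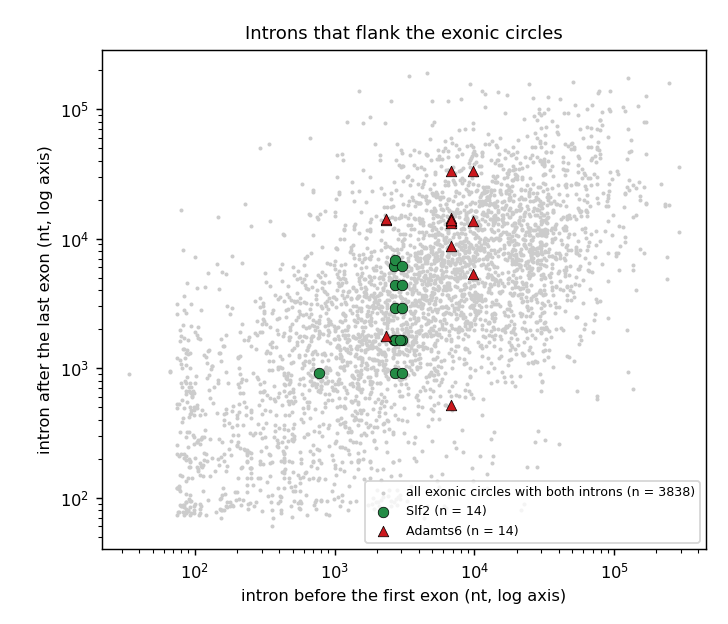
Length of the intron before the first exon against that after the last exon, both on log axes in nt, for the 14 exonic circles of each locus (coloured) and 3838 exonic circles of the series (grey). The Adamts6 circles that end at exon 7 sit high on the vertical axis, near 32964 nt, and the Slf2 circles have upstream introns of 777 to 3039 nt.

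Intronic circles, which start with the first base of an intron and stop short of its last, were few. Slf2 had 2, of 164 and 168 nt, both in the intron after exon 10, with 1 read in total RNA 1 and 1 in total RNA 2. Adamts6 had 8, all in the 598 nt intron after exon 19 and of 104 to 123 nt, with 13 reads in RPAD 1, 1 in total RNA 2 and none in the remaining libraries. The most read of these, from 105234297 to 105234404 (108 nt), had 6 reads, all in RPAD 1. All 8 stopped 475 to 494 nt before the intron's end. The median length over all 65062 intronic circles was 155 nt. Intronic reads made up 0.877% and 0.5% of Slf2 reads in total RNA and 6.25% of Adamts6 reads in RPAD 1.

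The comparison of RPAD with total RNA asks which circles gain or lose share when linear RNA is removed. It was tested over all circles with edgeR's quasi-likelihood test and Benjamini-Hochberg adjustment, and no circle of either locus passed adjusted p under 0.05. The low-count filter kept 11 of the 28 exonic circles (6 of Slf2 and 5 of Adamts6) and 0 of the 10 intronic ones. Over the 924 circles tested, 0% were called; 162 had an unadjusted p under 0.05 with edgeR and 164 with DESeq2. The 17 exonic circles not tested include Slf2 exons 5 to 11 and Adamts6 exons 4 to 7, whose reads were nearly all in RPAD 2. With a floor of 3 reads over the total RNA group, Adamts6 exons 4 to 7 was at least 36.9-fold higher in RPAD, through RPAD 2 alone. Slf2 exons 2 to 10 was at least 1.35-fold higher, through RPAD 1 alone. Untested circles read only in total RNA had bounds of up to 20.3-fold lower (Slf2 exons 9 to 10). All these bounds are relative to exonic reads. Of the 11, 4 had an unadjusted p under 0.05, all lower in RPAD, against 15.8% lower and 1.73% higher among all circles tested. These shares were not counted for exonic circles alone, though the 11 are all exonic. The median log2 fold change, RPAD over total RNA, was -1.07 over the 462 exonic circles tested and -0.15 over all 924. The filter required fewer reads in total RNA than in RPAD, so the 11 are mostly circles well read in total RNA, and their directions support nothing about the loci.

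Those 4 circles had 0 reads in both RPAD libraries, as had 27.7% of the 462 exonic circles tested. The 4 passed the filter through their total RNA reads alone, so the bounds and calls below describe them and support nothing about the loci. Relative to exonic reads, and with a floor of 3 reads over the RPAD group, Slf2 exons 4 to 7 was at least 201-fold lower, Slf2 exons 4 to 6 at least 125-fold lower, and Slf2 exons 5 to 6 (1039 nt; 9 and 2 reads in total RNA) and Adamts6 exons 2 to 14 each at least 17.2-fold lower. These bounds cover the counting error of the 0 reads alone and move with each library: with 1 library left out they were 76.2-fold (without RPAD 2), 97.5-fold (without total RNA 2), 125.1-fold (without RPAD 1) and 310.6-fold (without total RNA 1) for Slf2 exons 4 to 7, and 47.3-, 45.7-, 77.6- and 208.1-fold for exons 4 to 6 in the same order. For Slf2 exons 5 to 6 and Adamts6 exons 2 to 14 they were 6.5-fold without RPAD 2 and 10.7-fold without RPAD 1. Slf2 exons 5 to 6 reached 27.4-fold without total RNA 2 and Adamts6 exons 2 to 14 reached 25.6-fold without total RNA 1; with the other control library left out, the reads of each were at or under the floor and no bound is given. The edgeR adjusted p of each was 0.179. DESeq2 with its default filtering called Slf2 exons 4 to 7 (adjusted p = 0.0428; 0.000756 to 1.00 over its alternatives) and exons 4 to 6 (0.0482; 0.00386 to 1.00), both lower in RPAD, where 1.73% of circles were called lower and 2.06% either way; without that filtering the values were 0.0722 and 0.0813.

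The other 7 tested circles had log2 fold changes, RPAD over total RNA, within 2 standard errors (SE) of 0. Each SE was worked back from the fold change and the F statistic of edgeR's test. It restates that test and is no separate estimate of error. Slf2 exons 3 to 7 had -3.98 (SE 2.18) with an edgeR adjusted p of 0.603, and Adamts6 exons 2 to 9 and 2 to 10 had -5.01 (SE 2.85) and -3.25 (SE 2.04) with 0.648 and 0.75. For Adamts6 exons 2 to 11 and 2 to 7 the values were -1.33 (SE 2.16) and -3.63 (SE 2.79), with edgeR adjusted p of 0.999 and 0.937. Slf2 exons 4 to 9 had -1.71 (SE 2.72) and exons 5 to 7 had -3.20 (SE 3.12), both with an edgeR adjusted p of 0.999. These last values became 6.17 and 5.63 without total RNA 1, which held all control reads of both circles.

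Single RPAD libraries decided several of these calls. Without RPAD 1, edgeR called Adamts6 exons 2 to 7 (-10.26, adjusted p = 0.00454), Slf2 exons 4 to 9 and 5 to 7 (-6.79 and -7.73, adjusted p = 0.049 each) and Slf2 exons 4 to 6 and 4 to 7 (adjusted p = 0.0303 and 0.00684). Without RPAD 2 it called Adamts6 exons 2 to 9 (-9.16, adjusted p = 0.0123), Slf2 exons 3 to 7 (-7.66, 0.0242) and again Slf2 exons 4 to 6 and 4 to 7 (0.00386 and 0.000756). Each of the newly called circles then had 0 reads in the RPAD library that was left, so its fitted value is no measure of size. In the same fits 184 circles were called over the whole series without RPAD 1 and 214 without RPAD 2. Over all settings run, the edgeR or DESeq2 adjusted p of each of these circles reached 1.00 at its highest.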

How the data were processed

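Junctions of exonic and intronic circles, both counted here as back-splice junctions, were listed for 4 C2C12 libraries. The deposited files give, per the file headers, raw counts of junction reads per circle, a score per junction, the exons and the flanking introns. The submitters' processing notes list mm9 as the build and, as tools, Cufflinks 2.2.1, TopHat and cutadapt; for the back-splice junction caller, the name is not given in these sources. Per the labels' protocols, rRNA was depleted and cDNA was amplified, the last step being 17 PCR cycles.

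Circles were joined by position and strand, with 0 reads where a file lacked one; positions count from 1. Exon numbers follow the transcript models of the total RNA libraries. Transcripts sharing a circle end or an intron were linked into hosts. Circles were named with values if listed in at least 2 libraries or with at least 20 reads in all. Counts were tested with edgeR 4.0.16 (R 4.3.3) with TMM scaling and filterByExpr (minimum count 5, total 10); DESeq2 1.42.0 was an alternative. The edgeR script was run on simulated counts with known changes. The outcome is not given here, so it does not show how many changes the test could find in these data. The 95% intervals of shares are exact (Clopper-Pearson). In the fold bounds, a count of 0 was given a limit of 3 reads. Tables, intervals and permutation tests were made with pandas 2.3.3, numpy 2.4.6 and scipy 1.17.1, and plots with matplotlib 3.10.9, in Python 3.11.15. The members and lists were chosen with earlier results of these data known. The lists could not be paired with other genes of the SMC5/6 complex or the ADAMTS family, which were not analysed here.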

Additional observations from a re-analysis of the deposited data

How the results depend on the processing

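The RPAD libraries shared 0 of 5 Slf2 and 1 of 7 Adamts6 exonic circles (121 of 1155, 10.5%, over the series), and their leading circles' shares differed beyond counting error. Calls over all circles were 0 with edgeR under each setting that kept all 4 libraries, 19 with DESeq2 (0 without its independent filtering) and 0 to 214 with 1 library left out, where the single library left in a group is taken to vary as the other group does. The replicate block gave 0 calls, and deviations of same-numbered libraries correlated at 0.0524, which with 2 pairs does not settle a pairing. Both loci's shares of exonic reads kept their direction under all settings run (Slf2 -1.09 to -0.492 and Adamts6 -0.59 to -0.36 points with 1 library left out).

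Slf2's leading circle differed by 48.6 points (RPAD minus total RNA), by 97.7 without RPAD 1 and -0.442 without RPAD 2 (the range with 1 library left out), and by -38.5 with exons 4 to 7 in its place. Adamts6's differed by -30.4, by -51.1 without RPAD 1 and -9.59 without RPAD 2 (the range with 1 library left out), and by 48.7 with exons 4 to 7 in its place. These replacements and DESeq2 without independent filtering were chosen after seeing the data. Slf2's intronic share differed by -0.689 points, by -0.877 to -0.5 with 1 library left out, and by 0 with circles of at least 2 reads only, which removes its single-read circles. That of Adamts6 differed by 2.8 points, and by 1.98 with circles of at least 2 reads only. It changed sign with 1 library left out, at -0.327 without RPAD 1 and 5.92 without RPAD 2. Without total RNA 1, Slf2 exons 4 to 9 and 5 to 7 turned to 6.17 and 5.63 on the log2 scale (with 1 library left out, -6.79 to 6.17 and -7.73 to 5.63). Of the 106 alternatives for the fold changes of single circles, 93 kept direction and side of the threshold, 11 passed it and 2 reversed. Those 93 include DESeq2 with default filtering for Adamts6 exons 2 to 14 and Slf2 exons 5 to 6. There the direction was kept but no adjusted p was given.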
